A study of Mus musculus with 12 samples.

Results

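The genes of the lysosome and of its proton pump, the vacuolar H+-ATPase (V-ATPase), were examined in mouse primary hippocampal cultures that received either a mimic of the microRNA miR-148a-3p or a negative control oligonucleotide. The 35 genes were taken by name from 48709 genes in the raw count tables: 18 pump genes (7 of the V0 sector, 9 of the V1 sector and 2 accessory subunits), 9 hydrolases, 4 membrane proteins, 3 soluble cofactors and the transcription factor Tfeb. All 35 passed the filter on low counts (5 or more counts in 6 or more of the 12 libraries), which 18847 genes passed.

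Neurons came from CD1 mouse embryos at embryonic day 17 and were treated at day 10 in vitro. Treatment lasted 48 h, so RNA was collected at day 12. According to the methods of the study, oligonucleotides were delivered in lipid nanoparticles together with ApoE4. Both groups of 6 libraries carry an oligonucleotide, so neither is untreated. The labels do not say which libraries came from separate preparations of neurons, so a p-value measures the spread between these libraries only.

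The V-ATPase is a rotary machine: its cytosolic V1 sector splits ATP, and its membrane-bound V0 sector carries protons into the lumen. The low pH it makes lets soluble hydrolases digest proteins, glycolipids and sugars, while membrane proteins protect the lysosome and move its products out. In neurons the same pump also acidifies synaptic vesicles, which load neurotransmitter from the proton gradient, and TFEB, the best known transcription factor of lysosomal genes, binds a promoter element whose core letters are TCACGTGA.

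The total count per library was 20018234 to 37149112 and did not separate the groups (two-sided exact permutation test, p = 0.515). Control libraries 1 and 2, the shallowest, stood apart from the others on the second principal component of all tested genes, at 26.4 and 10.1 against -11.2 to 4.11 elsewhere, and results that turn on them are given with and without them. Neuron markers were present as labelled: the summed level of 14 of them was 8105 to 8916 CPM (counts divided by the TMM-scaled library total and given on the usual CPM scale) in control and 8164 to 8523 in mimic. The cultures also held glial RNA. The summed level of 10 astrocyte markers was 5162 to 5680 CPM in control and 6255 to 6693 in mimic, and that of 8 oligodendrocyte lineage markers 393 to 681 CPM and 768 to 963. In bulk RNA, fewer cells of a type and less RNA per cell cannot be told apart.

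The oligonucleotides are shown first, because the members were searched for matches to them. A microRNA recognises transcripts mainly through its seed, bases 2 to 8, in capitals here.
miR-148a-3p mimic: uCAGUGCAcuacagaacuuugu
negative control: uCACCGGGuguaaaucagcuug
The mimic was identical over its 22 bases to the mature mouse microRNA in RefSeq (GRCm38.p6, chr6:51269829-51269850, minus strand). The sequence of the negative control is the one in the reagent list of the study and is assumed to be the one these 6 control cultures received.

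The 3 prime untranslated regions (UTRs) of 7 of the 35 members held a match to the seed of the mimic. Among the 15082 tested genes with an annotated UTR the share was 21.9%. The 25 bases around each match follow, 5 prime to 3 prime on the strand of the transcript in GRCm38, with the match in capitals. They are shown because none of these 7 genes passed the test as lower in mimic with all libraries in the fit.
Atp6v0a1, chr11:101063245-101063269, plus strand: ccctccccaagccccGCACTGAccc
Atp6v0d1, chr8:105524870-105524894, minus strand: cttaaggttcccaagTGCACTGtgt
Atp6v0e, chr17:26695462-26695486, plus strand: ctgcacagtgcctagGCACTGAggt
Atp6ap2, chrX:12616132-12616156, plus strand: tacatgtggaaatacGCACTGAgag
Ctsl, chr13:64361193-64361217, minus strand: ttgtgccagggtctaGCACTGAact
Ctsz, chr2:174427704-174427728, minus strand: aggatgaaacacaacTGCACTGgga
Lamp1, chr8:13175193-13175217, plus strand: gggtggccctgtctcTGCACTGtgt
Each of these genes has 1 match. All are 7-base matches, either to bases 2 to 8 (TGCACTG) or to bases 2 to 7 followed by A (GCACTGA), and none has the 8-base match that joins both. Of the 7 genes, Atp6v0e and Ctsl rose, and the log2 fold changes of the other 5, below 0 in 4 of them, lay between -0.14 (Atp6ap2) and 0.05 (Lamp1) without passing the test. Atp6ap2 and Ctsz did pass as lower in fits without certain libraries, named with those genes further on. The median log2 fold change of the 7 was -0.05, beside -0.04 for the 3307 tested genes with a match. Over all 35 members it was -0.01, and over all tested genes also -0.01. The seed of the negative control had a match in Neu1 and Npc2 only, 2 of 35 members against 4.42% of the tested genes.

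The question of the comparison was how lysosomal transcripts responded to the mimic, and whether the pump moved with the contents of the lysosome. Of the 35 members, 7 were higher and 1 was lower in mimic by the quasi-likelihood test of edgeR at an adjusted p under 0.05. That is 22.9% of the members, close to the 22.2% of all tested genes that were called, of which 11.5% were higher and 10.7% lower. The CPM of the groups did not overlap for 6 of the 35 members, all higher. Among all 18847 tested genes they did not overlap for 13.3%, 1400 genes as higher and 1099 as lower. The genes that rose were the hydrolases Ctsl, Hexa, Gla and Ctsf, the cofactors Grn and Npc2, and a single pump gene, Atp6v0e. The gene that fell was Mcoln1. Changes were small. Over the 35 members the median absolute log2 fold change was 0.06, and over all tested genes it was 0.12.

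**Figure D1:**
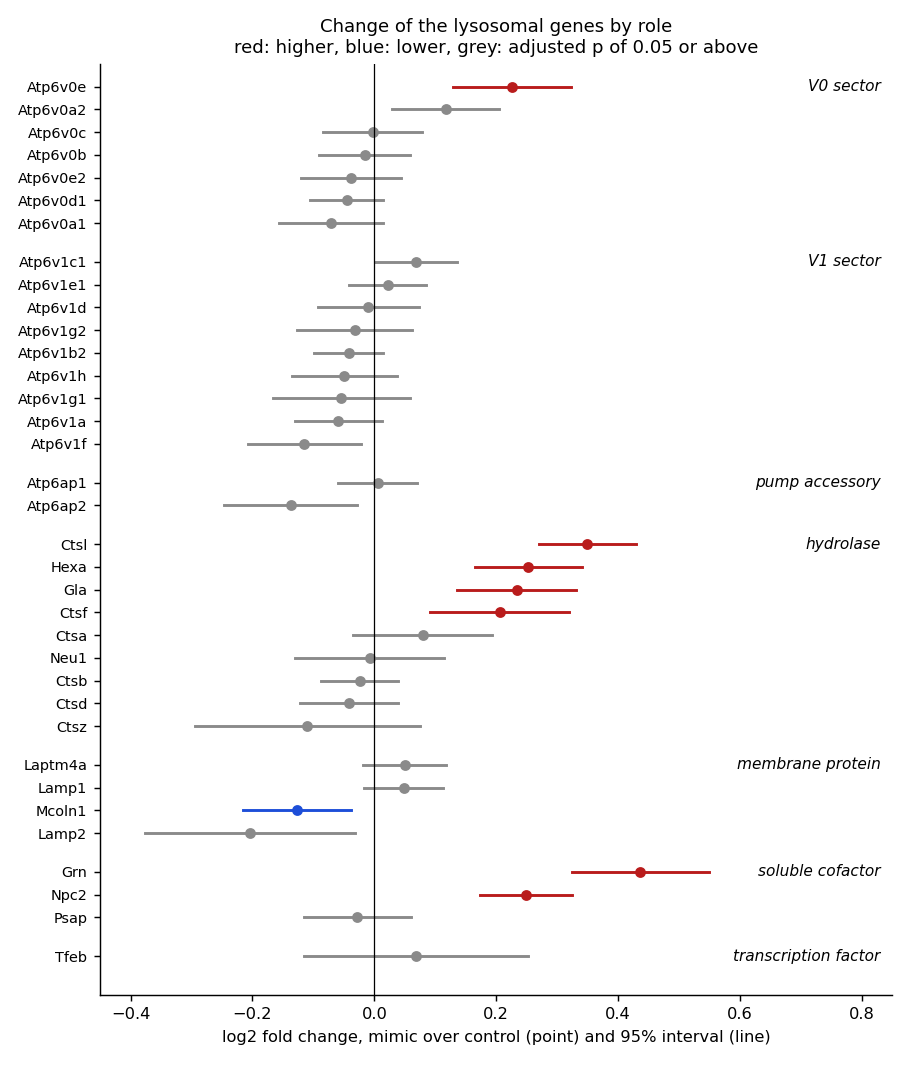
Log2 fold change, mimic over control, of each of the 35 genes (point) with its 95% interval (line), grouped by role on the vertical axis. Red genes were higher and the blue gene lower at an adjusted p under 0.05 (edgeR), and the others are grey. In the pump Atp6v0e alone is red, at 0.23, while hydrolases and cofactors reach 0.35 (Ctsl) and 0.44 (Grn).

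Within the proton pump, 1 of 18 genes was higher and 0 were lower, 5.56% against the 22.2% of all tested genes. At an unadjusted p under 0.05, 5 of the 18 passed (27.8%, beside 32.7% of all tested genes), and DESeq2 called 3 of the 18 at an adjusted p under 0.05 (16.7%, beside 23.8%). Its median log2 fold change was -0.04, with a range from -0.14 to 0.23. Subunits differed in spread: the SD in control was 0.98% of the mean for Atp6v1b2 and 8.63% for Atp6v1g1. Atp6v1b2, the B2 subunit that binds ATP together with the catalytic subunit, ran from 704 to 723 CPM (median 713) in control and from 682 to 705 CPM (median 690) in mimic. The groups overlapped by a narrow margin, and the 95% interval of the log2 fold change was -0.10 to 0.01. Atp6v1a, the catalytic A subunit, stood at 883 ± 39.6 CPM (SD, n = 6) in control and 848 ± 15.9 in mimic, with an interval of -0.13 to 0.01. For Atp6v0d1, the subunit that couples V0 to the rotor, the interval was -0.11 to 0.01. The intervals of Atp6v1b2, Atp6v1a and Atp6v0d1 bound any change of these genes in this comparison, and do not show that it was 0. Among the other subunits not called, the intervals of Atp6v0a2 (0.03 to 0.21) and Atp6v1c1 (0.002 to 0.14) lay above 0. Those of Atp6v1f (-0.21 to -0.02) and Atp6ap2 (-0.25 to -0.03) lay below 0.

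The pump gene that passed the test was Atp6v0e (ENSMUSG00000015575, chr17:26663231-26699647, plus strand), which encodes the small membrane subunit e1 of V0. Its level was 23.9 CPM at the lowest, 26.6 at the median and 28.4 at the highest in control, and 29.3, 30.9 and 33.4 CPM in mimic. Every mimic library lay above every control library. The log2 fold change was 0.23 (SE 0.05; adjusted p = 0.00147, edgeR), an increase of 16.9%. The summed astrocyte and oligodendrocyte markers, given further on, were also higher in every mimic library, and their part in this change was not tested.

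Some pump subunits come from alternative genes, and 3 such pairs could be compared per transcript length. Atp6v0a1, the a1 isoform of nerve terminals, made up 91.8% ± 0.33 (SD, n = 6) of the CPM per kb of a1 and a2 in control and 90.8% ± 0.21 in mimic. The groups did not overlap (91.5 to 92.4% and 90.5 to 91.1%). The share of the e2 isoform, Atp6v0e2, among e1 and e2 was 96.8% ± 0.29 in control and 96.2% ± 0.18 in mimic, again without overlap. For Atp6v1g2, the G2 isoform known from neurons, the share among G1 and G2 was 82.7% ± 1.39 in control and 83.0% ± 0.63 in mimic, and the groups overlapped. The G1 level behind this share is uncertain. Of the 50-base windows of the principal transcript of Atp6v1g1, 19.2% also occur in the gene models Gm13453 and Gm12344. The shifts of a and e were small beside the shares themselves, and in both the isoform of many tissues gained while the neuronal isoform stayed the main one. These shares have no test of their own and depend on the transcript lengths used. Of their genes only Atp6v0e passed the test across genes: the a2 gene, Atp6v0a2, had a log2 fold change of 0.12 (edgeR adjusted p = 0.0551; called in 5 of 18 alternatives, DESeq2 among them, at adjusted p-values from 0.00089 to 0.118 over all 18) and Atp6v0a1 one of -0.07 (edgeR adjusted p = 0.241).

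The count of pump genes depends on control libraries 1 and 2. Without control library 1 it rose to 4 of 18 (22.2%, beside 27.4% of all genes tested in that fit), and without both it rose to 5 of 18 (27.8%, beside 31.3%). The 5 were Atp6v0a2 and Atp6v0e, which were higher, and Atp6v1a, Atp6v1h and Atp6ap2, which were lower. Without both libraries the log2 fold change of Atp6ap2, the prorenin receptor and an accessory subunit of the pump, was -0.20 (edgeR adjusted p = 0.000742), against -0.14 (0.0688) with all libraries. It also passed as lower without control library 1, control library 2 or mimic library 3 alone (edgeR adjusted p = 0.0210, 0.0266 and 0.0421). Atp6ap2 was at 219, 212 and 229 CPM in control libraries 1, 2 and 3, inside the mimic range of 206 to 234 CPM, and at 247 to 260 CPM in the other 3 control libraries.

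Of the 9 hydrolases 4 rose and 0 fell (44.4%, beside 11.5% of all tested genes that rose and 10.7% that fell), with a median log2 fold change of 0.08. Ctsl (ENSMUSG00000021477, chr13:64359337-64370890, minus strand) encodes cathepsin L, a cysteine protease. It ran from 112 to 125 CPM (median 121) in control and from 144 to 164 CPM (median 151) in mimic. The groups were clearly apart, and the log2 fold change was 0.35 (SE 0.04; adjusted p = 2.66e-06, edgeR). Gene models overlap here: 28.1% of the 50-base windows of its principal transcript also occur in other genes, chiefly in the antisense gene Gm47123, and whether the counting used strand is not stated.

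Hexa (ENSMUSG00000025232, chr9:59539540-59565109, plus strand) encodes the alpha subunit of beta-hexosaminidase, which removes a sugar from the ganglioside GM2. It measured 36.6 to 42.3 CPM (median 39.3) in control and 45.8 to 49.1 CPM (median 46.4) in mimic. There was no overlap, and the log2 fold change was 0.25 (SE 0.04; adjusted p = 0.000238, edgeR). Of its windows 10.6% also lie in the gene Tmem202.

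Gla (ENSMUSG00000031266, chrX:134588149-134601125, minus strand) encodes alpha-galactosidase A, which cleaves galactose from glycolipids. It was the least abundant hydrolase per transcript length, at 11.9 to 12.9 CPM (median 12.3) in control and 14.0 to 15.6 CPM (median 14.3) in mimic. The groups did not overlap, at a log2 fold change of 0.23 (SE 0.05; adjusted p = 0.00118, edgeR). For Ctsf (ENSMUSG00000083282, chr19:4855130-4860918, plus strand), the cysteine protease cathepsin F, the groups did overlap: 46.4 to 59.1 CPM (median 49.1) in control and 55.4 to 63.2 CPM (median 58.3) in mimic. Its log2 fold change was 0.21 (SE 0.05; adjusted p = 0.0101, edgeR). The highest control value was that of control library 1.

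The other 5 hydrolases did not pass the test. The abundant proteases Ctsb and Ctsd, which together with Ctsl do much of the protein digestion in lysosomes, had log2 fold changes of -0.02 (95% interval -0.09 to 0.04) and -0.04 (-0.12 to 0.04). Ctsa, the protective protein of the galactosidase and sialidase complex, was at 106 CPM in control library 1 and at 82.6 to 91.1 CPM in the other control libraries, against 89.9 to 96.2 CPM in mimic. Its log2 fold change was 0.08 (edgeR adjusted p = 0.337) with all libraries and 0.14 (edgeR adjusted p = 0.00349) without control library 1. Neu1, the sialidase of the same complex, had a value of -0.01. Ctsz, a carboxypeptidase, ranged from 13.6 to 21.1 CPM in mimic, more widely than in control (16.98 to 18.6 CPM). The highest value was that of mimic library 2, in which the summed level of 13 microglia markers was also highest, at 41.0 CPM against 25.7 to 32.9 CPM in the other libraries, and the part of these markers in the value of Ctsz was not tested. Without mimic library 2, Ctsz had a log2 fold change of -0.20 (edgeR adjusted p = 0.0264), against -0.11 (0.423) with it.

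Among the 4 membrane proteins Mcoln1 was lower and 0 were higher (25.0%, near the 22.2% of all tested genes that were called, 10.7% as lower), with a median log2 fold change of -0.04, like that of the pump. Mcoln1 (ENSMUSG00000004567, chr8:3500457-3515232, plus strand) encodes TRPML1, a channel that releases calcium from the lysosome. Its level was 66.7 to 77.7 CPM (median 69.8) in control and 62.4 to 68.6 CPM (median 64.1) in mimic. The groups overlapped, the log2 fold change was -0.13 (SE 0.04; adjusted p = 0.0378, edgeR), and the call was lost in 9 of 18 alternative fits, at adjusted p-values of up to 0.0873. Lamp1, a glycoprotein that lines the lysosomal membrane, and Laptm4a both had a log2 fold change of 0.05, with intervals of -0.02 to 0.11 and -0.02 to 0.12. Lamp2, the receptor of chaperone-mediated autophagy, stood at 112 and 122 CPM in control libraries 1 and 2 and at 144 to 162 CPM in the other 4, against 114 to 135 CPM in mimic. Its log2 fold change was -0.20 (edgeR adjusted p = 0.0875) with all libraries, -0.26 (edgeR adjusted p = 0.0105) without control library 1 and -0.32 (edgeR adjusted p = 3.51e-05) without both.

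Of the 3 soluble cofactors 2 rose and 0 fell (66.7%, beside 22.2% of all tested genes called in either direction), with a median log2 fold change of 0.25, and they held the largest change of all members. Grn (ENSMUSG00000034708, chr11:102430315-102437048, plus strand) encodes progranulin, a secreted glycoprotein that is cut into granulins in the lysosome. It ran from 72.2 to 90.95 CPM (median 76.2) in control and from 97.8 to 112 CPM (median 108) in mimic. All mimic libraries were above all control libraries. The log2 fold change was 0.44 (SE 0.05; adjusted p = 1.04e-05, edgeR), an increase of 35.3%. Npc2 (ENSMUSG00000021242, chr12:84754562-84773152, minus strand), which carries cholesterol within the lysosome, was at 106 to 118 CPM (median 112) in control and 128 to 140 CPM (median 134) in mimic. It was also without overlap, at 0.25 (SE 0.04; adjusted p = 6.16e-05, edgeR). Psap, the precursor of the saposins that present glycolipids to hydrolases, had a log2 fold change of -0.03 with a 95% interval of -0.12 to 0.06.

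Tfeb (ENSMUSG00000023990, chr17:47737030-47792419, plus strand) was the least abundant member. It ranged from 4.62 to 5.20 CPM in control and from 4.20 to 6.19 CPM in mimic, so the mimic libraries reached both below and above the control libraries. The log2 fold change was 0.07 with an interval of -0.11 to 0.25 (edgeR adjusted p = 0.643), and depth limits the precision at 103 to 198 counts per library. RNA levels do not show the activity of this factor, which is known to be set by its phosphorylation and its entry into the nucleus.

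**Figure D2:**
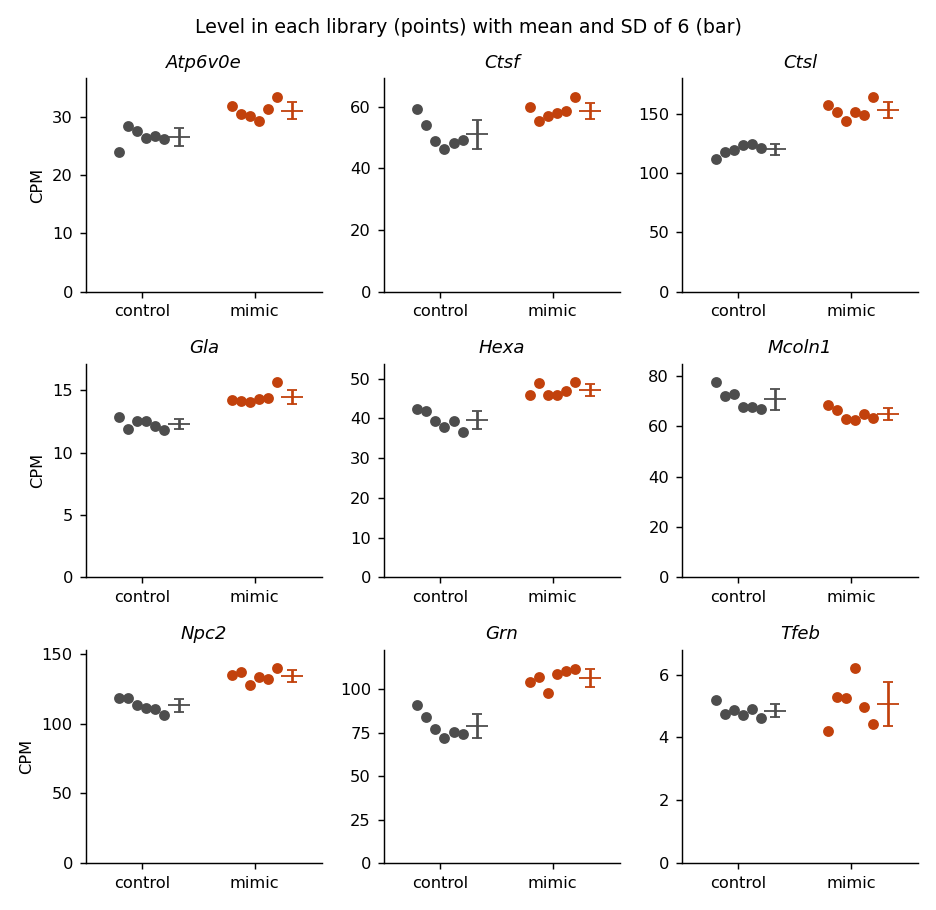
CPM in each library (points; control in grey, mimic in orange, libraries 1 to 6 from left to right within a group) with the mean and SD of 6 libraries (bar), for the 8 genes that passed the test and for Tfeb. The axes start at 0. The groups are apart for Atp6v0e, Ctsl, Gla, Hexa, Npc2 and Grn and overlap for Ctsf, Mcoln1 and Tfeb.

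The pump and the rest of the lysosome were then set against each other. Of 13 hydrolases and membrane proteins, 4 were higher and 1 was lower (38.5%, beside 22.2% of all tested genes), and their median log2 fold change was 0.05, so the pump median lay -0.08 from theirs. Within these 13 the medians differed in sign, at 0.08 for the hydrolases and -0.04 for the membrane proteins. In each library the mean log2 ratio to the control mean was taken over each group of genes. For the pump it was -0.02 to 0.03 in control and -0.03 to 0.02 in mimic. For hydrolases and membrane proteins it was -0.03 to 0.05 in control and 0.03 to 0.09 in mimic, and for the cofactors -0.09 to 0.15 and 0.14 to 0.27. The groups overlapped in all 3, and control library 1 was the highest control library in each. The mean over hydrolases and membrane proteins minus that over the pump was -0.03 to 0.02 in control and 0.05 to 0.10 in mimic, without overlap. With the cofactors in place of the membrane proteins, the difference from the pump was -0.06 to 0.09 in control and 0.11 to 0.18 in mimic. The contrast thus had 1 direction in all 6 mimic libraries but was small, and 8 of the 13 hydrolases and membrane proteins were not called. The difference between the medians was -0.05 without control library 1 and -0.04 without control libraries 1 and 2. No p is given for these differences, since the genes were chosen with results known.

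**Figure D3:**
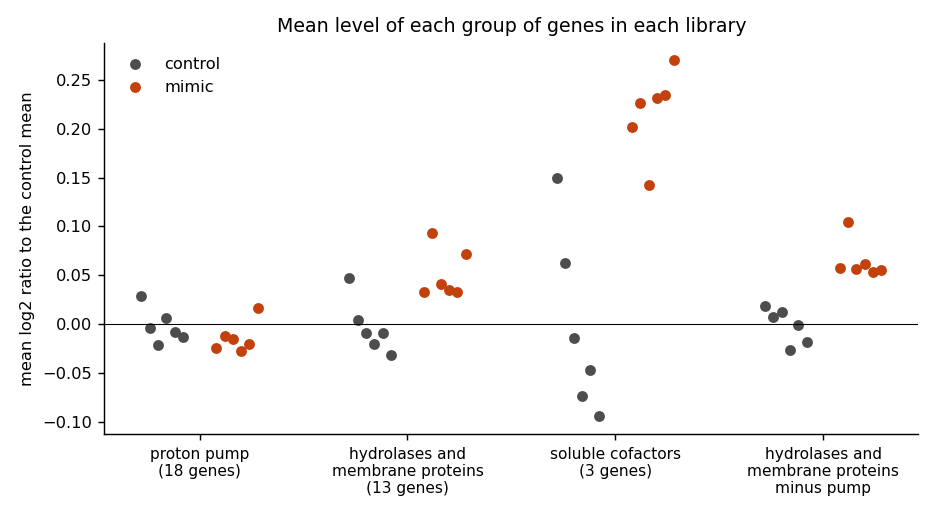
Mean log2 ratio to the control mean, per library, over the 18 pump genes, the 13 hydrolases and membrane proteins, the 3 soluble cofactors, and for hydrolases and membrane proteins minus the pump (control in grey, mimic in orange, libraries 1 to 6 from left to right). The groups overlap in each of the 3 sets of genes, while the difference is at most 0.02 in control and at least 0.05 in mimic.

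Beside these changes stand those of the cell type markers, read against the 22.2% of all tested genes that were called. In either direction 80% of the astrocyte, 75.0% of the oligodendrocyte lineage, 40.0% of the endothelial and 35.7% of the neuron markers were called, and 25.0% of the mesenchymal and 23.1% of the microglia markers, which is near that background. Of the astrocyte markers 7 of 10 were higher and 1 was lower: Slc1a3, a glutamate transporter, had a log2 fold change of 0.99 and Glul, glutamine synthetase, 0.74, while Gfap, a filament protein of reactive astrocytes, was at -0.90. Of the oligodendrocyte lineage markers 5 of 8 were higher and 1 was lower, led by Olig1 (0.96), Olig2 (0.71) and Cspg4 (0.69). Of the neuron markers 2 of 14 were higher and 3 lower, with Tubb3 at -0.32, Neurod2 at -0.27 and Stmn2 at -0.20. Of 13 microglia markers 0 were higher and 3 lower (C1qa, C1qb and C1qc, none above 1.83 CPM in a library). Endothelial markers were lower in 2 of 5 (Kdr at -0.64) and mesenchymal markers in 2 of 8 (Acta2 at -2.86 and Tagln at -1.74). The endothelial sum was 46.6 to 68.7 CPM in control and 28.3 to 50.8 CPM in mimic. The mesenchymal sum was 201 to 268 CPM in control and 98.1 to 226 CPM in mimic, and the groups overlapped in both sums. No marker on these lists was at 0 in all libraries. The astrocyte and oligodendrocyte sums were higher in every mimic library than in every control library, as were Ctsl, Hexa, Gla, Grn, Npc2 and the pump gene Atp6v0e. The part of these cells in the results for the 6 genes, in the contrast with the pump and in the e2 share was not tested.

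**Figure D4:**
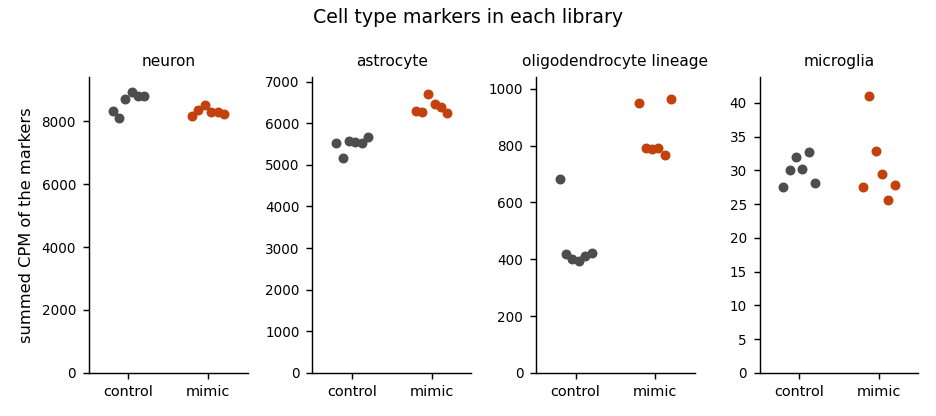
Summed CPM of the neuron, astrocyte, oligodendrocyte lineage and microglia markers in each library (control in grey, mimic in orange, libraries 1 to 6 from left to right within a group). Each axis starts at 0 and has its own scale. Astrocyte and oligodendrocyte lineage sums are higher in all mimic libraries, at 6255 CPM and 768 CPM or more. Neuron and microglia sums overlap.

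The abundance of the members was compared per transcript length, as CPM per kb of the principal transcript in control. Where a gene had several principal transcripts of the best rank, the longest was used. This length was 6168 bases for Ctsl, 3299 for Npc2 and 2812 for Atp6v0e. Levels per kb and their order depend on this choice, and other transcripts were not tried. Psap was the highest at 599 ± 43.1 (SD, n = 6), followed by the pump genes Atp6v0e2 (290 ± 15.9), Atp6v1b2 (252 ± 2.46) and Atp6v1e1 (223 ± 5.25). Then came Lamp1 (220 ± 7.64), whose libraries overlapped those of Atp6v1e1. Tfeb was the lowest at 2.11 ± 0.0893, after Gla at 3.88 ± 0.127 and Atp6v0e at 9.44 ± 0.539. The 7 genes that rose all stood at 34.3 CPM per kb or less, and Grn and Npc2, next to each other in the order, did not differ beyond their spread. Levels of Atp6v0c, the ring subunit c, and Ctsd are uncertain: 32.5% of the windows of Atp6v0c also occur in its processed copies and 36.6% of those of Ctsd in the gene model Gm49369. Levels of other members have the same limit. The share of windows was 28.1% for Ctsl, 19.2% for Atp6v1g1, 18.2% for Atp6v1f, 15.8% for Ctsa and 15.4% for Ctsb. It was 10.8% for Atp6v0a2 and 10.6% for Hexa.

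**Figure D5:**
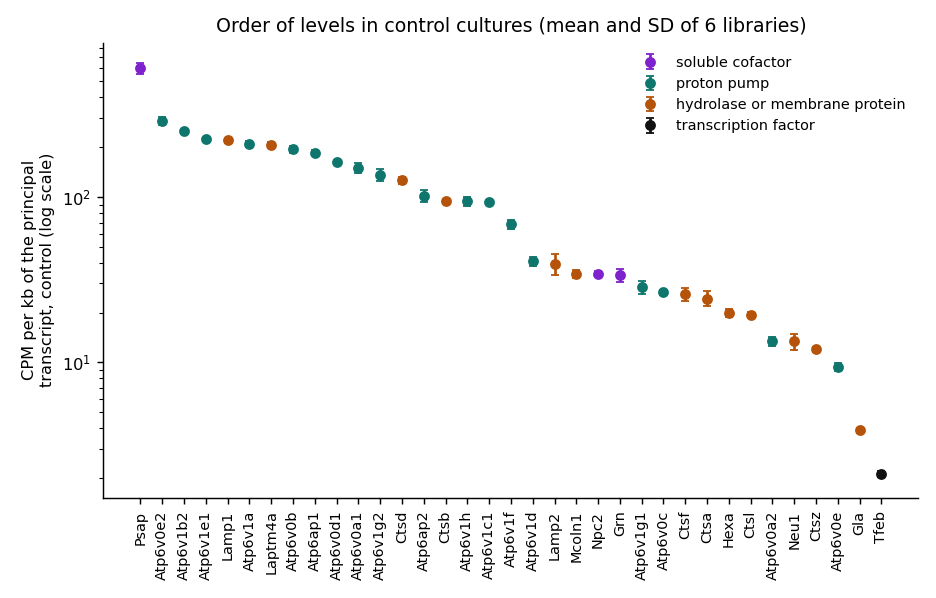
CPM per kb of the principal transcript in control (log axis), mean and SD of 6 libraries, with the genes ordered from the highest to the lowest and coloured by group. Psap leads at 599 and Tfeb is last at 2.11. Pump genes fill most places near the top, and the hydrolases that rose lie in the lower part.

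The rest of the pathway was read from lists of 116 further genes, of which 111 were tested. Of these 17 were higher and 7 lower (21.6%, near the 22.2% of all tested genes). Without control libraries 1 and 2 the count was 43 of 111 (38.7%, beside 31.3% of all genes tested in that fit). Among 39 other hydrolases 9 were higher and 3 lower (30.8%). Ctsc, a dipeptidyl peptidase that activates other proteases, rose from 15.9 ± 1.52 CPM (SD, n = 6) to 27.2 ± 2.12, a log2 fold change of 0.76 (edgeR adjusted p = 1.95e-07). Fuca1, which removes fucose from glycoproteins, had a log2 fold change of 0.44 (edgeR adjusted p = 1.26e-05). Tpp1, the tripeptidyl peptidase lost in a childhood form of neuronal ceroid lipofuscinosis, fell from 77.7 ± 1.52 CPM to 47.6 ± 2.94, a log2 fold change of -0.70 (edgeR adjusted p = 2.71e-09), and its groups did not overlap.

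Among further cofactors Gm2a, the activator that hands GM2 to beta-hexosaminidase, was higher (0.41, edgeR adjusted p = 4.65e-07). Among 24 other membrane proteins 3 were higher and 2 lower (20.8%, just under the 22.2% of all tested genes). They included Npc1, the membrane partner of Npc2 in cholesterol export (0.36, edgeR adjusted p = 0.000196), the cystine exporter Ctns (0.26, edgeR adjusted p = 0.00167) and Laptm4b (-0.37, edgeR adjusted p = 2.63e-06). Of 11 sorting receptors and tagging enzymes, Igf2r, the large mannose 6-phosphate receptor, and Sort1, sortilin, a receptor of progranulin, were higher at 0.29 (edgeR adjusted p = 2.55e-05) and 0.19 (edgeR adjusted p = 0.000164), and 0 were lower. This share of 18.2% was also below that of all tested genes.

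Lists around the pump and its regulators were read against the same 22.2% of all tested genes. Of 10 genes of V-ATPase assembly and association, Oxr1 was higher (0.17, edgeR adjusted p = 0.0347) and Tmem199 lower (-0.16, edgeR adjusted p = 0.013), a share of 2 in 10 that is near that background. Of 5 tested alternative pump subunits 0 were called by edgeR (1 at an unadjusted p under 0.05), and of 17 genes of mTORC1 control at the lysosome only Rragd, a Rag GTPase, was called (5.88%), lower at -0.26 (edgeR adjusted p = 0.000312). Of the other factors of the Tfeb family, Tfe3 stood at 46.4 to 51.1 CPM in control and 43.7 to 46.2 CPM in mimic. Its groups did not overlap, but its log2 fold change of -0.09 did not pass the test across genes (edgeR adjusted p = 0.0708). Mitf ranged from 1.51 to 6.40 CPM in mimic (0.40, edgeR adjusted p = 0.456), and Tfec was too low to be tested.

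Seed matches were then counted in these lists. They were present in 6 of the 7 genes that were lower (85.7%), in 1 of the 17 that were higher (5.88%) and in 20.7% of the 87 that were not called. Among all tested genes with a UTR the shares were 33.4% of those lower, 18.8% of those higher and 20.5% of those not called. Tpp1 holds 3 matches and Laptm4b and Tmem175 hold 2 each, in all 3 genes including the 8-base kind that no member has. The log2 fold change of Tmem175 was only -0.11, against -0.70 and -0.37 for Tpp1 and Laptm4b. The 8-base matches of the 3 genes are shown for comparison with the sequences of the members above, in the same notation.
Tpp1, chr7:105746264-105746288, minus strand: acgcttaccacctcTGCACTGAccg
Laptm4b, chr15:34283963-34283987, plus strand: gggccagcttgctcTGCACTGAgag
Tmem175, chr5:108647483-108647507, plus strand: acaggagaaggctcTGCACTGActg
The other lower genes with a match were Sgsh, Galns and Rragd, and the gene without one was Tmem199. The higher gene with a match was Gm2a. Sgsh, Galns and Tmem175 fall outside the rule for named genes and are named here because of this count. A match is a description of the sequence and does not show that the mimic acts on the transcript.

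Promoters were searched for the core letters of the element that TFEB binds. RefSeq promoter windows of GRCm38.p6, from 250 bases before to 50 after a transcript start annotated in RefSeq, were matched for 29 of the 35 members, and not for Atp6v0a2, Atp6v1b2, Atp6v1c1, Atp6v1g1, Atp6v1h and Ctsb. TCACGTGA, which reads the same on both strands, occurred in 7 of the 29 (24.1%) and in 1.12% of all 27025 genes with a window. The shorter CACGTG, which lies inside it and is also its own reverse complement, occurred in 11 (37.9%) against 8.09%. The RefSeq start need not be the outermost start of the gene model used above, and for Atp6v0e it lies inside that model. The 7 genes with TCACGTGA were Ctsa and Gla with 2 copies each and Ctsd, Mcoln1, Atp6v0d1, Atp6v1a and Atp6v0e with 1. The windows of the 3 genes that were called and of 2 that were not are shown on the strand of the gene, with the motif in capitals.
Atp6v0e, chr17:26676388-26676415, plus strand: agcgcgccgaTCACGTGAgcctctgttg
Gla, chrX:134601183-134601210, minus strand: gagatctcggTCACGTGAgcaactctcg
Mcoln1, chr8:3500463-3500490, plus strand: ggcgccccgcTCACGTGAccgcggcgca
Atp6v0d1, chr8:105566051-105566078, minus strand: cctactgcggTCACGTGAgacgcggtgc
Ctsd, chr7:142387909-142387936, minus strand: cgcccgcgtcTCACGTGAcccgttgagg
The 7 genes did not move together. Atp6v0e and Gla rose, Mcoln1 fell, and the other 4 had log2 fold changes from -0.06 (Atp6v1a) to 0.08 (Ctsa), with a median over the 7 of -0.04. Ctsl and Ctsf, which rose, hold CACGTG only. Hexa, Npc2 and Grn, which rose as well, hold neither word in this window, which says nothing of sites elsewhere.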

How the data were processed

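Poly(A) RNA of 6 control and 6 mimic cultures was sequenced as 50 bp single-end reads. The deposited values are raw counts per Ensembl gene, which the authors made with STAR 2.5.2b and featureCounts (Subread 1.5.1) after FastQC 0.11.5, on mm10, per the submitters' processing notes. Whether strand was used and how reads matching several genes were treated is not given in the sources used here. A deposited table of normalized values was not used, and 0 columns of other samples were present. Symbols, UTRs and coordinates came from GENCODE M21 on GRCm38, the build called mm10. It named 48349 of the 48709 genes.

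Genes with at least 5 counts in 50% of the samples, the filter of the study, were tested with edgeR 4.0.16 (R 4.3.3; TMM, robust quasi-likelihood F-test, no covariate, Benjamini-Hochberg over all 18847 genes). The study used DESeq2, which was run as an alternative (1.42.0). The same fit, tested on simulated data for the 6 against 6 comparison over 18847 genes, recovered 99% of 100 genes changed by 0.5 and 99% of 100 changed by 1 on the log2 scale. The changed genes all had a mean of at least 100 counts. Every member changed by less than 0.5, the largest by 0.44 (Grn), so the simulation does not give the recovery at the sizes reported here. CPM are relative to TMM-scaled totals, and per kb they are divided by the length of the principal transcript, the longest of those with the best rank. For each gene the longest annotated 3 prime UTR was searched for seed matches. Total counts were 20018234 to 37149112 per library, and counts of a member ranged from 103 (Tfeb) to 58683 (Psap), so that counting error is a part of the spread between libraries.

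Members and lists were chosen with earlier results of these data known. Named genes were the members called, Tfeb and the alternative subunit pairs, in each other list up to 3 called genes with the largest change and a mean of at least 100 counts, the factors of the Tfeb family, and members with a seed match or promoter motif. Of the genes under this rule, 1 is not reported here. Alternatives were RLE size factors, DESeq2, no filter, at least 50 counts, a replicate block and leaving out each library. Leaving out control libraries 1 and 2 together was chosen after seeing the data.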

Additional observations from a re-analysis of the deposited data

Results flagged for a closer look

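For 8 of the 70 groups of 6 values (35 genes in each group), 1 library lay so far from the other 5 that its gap exceeded the 95% limit of Dixon's test. Chance flags about 1 in 20 groups, or 3.5 of 70. Control library 1 accounted for 4 of the 8, each time as the highest of its group: Atp6v0a2 at 80.5 CPM against 68.1 to 71.6 in the other 5, Atp6v0e2 at 574 CPM against 497 to 519, Ctsa at 106 CPM against 82.6 to 91.1, and Neu1 at 40.1 CPM against 30.4 to 33.3. This library had the smallest total, 20018234 counts, and of the control libraries the highest summed level of oligodendrocyte lineage markers, 681 CPM. Control library 2 was high for Ctsz, at 18.6 CPM against 16.98 to 17.2. In mimic, library 3 was high for Atp6v1a (878 CPM against 836 to 852), and library 6 for Atp6v1d (157 CPM against 145 to 149) and for Gla (15.6 CPM against 14.0 to 14.4). The part of depth and of cell composition in these values was not tested.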

How the results depend on the processing

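Of the 8 members called, 7 (all but Mcoln1) stayed called in 18 of 18 alternatives. Adjusted p-values over the alternatives ran from 0.000742 to 0.145 for Atp6ap2, 0.00089 to 0.118 for Atp6v0a2, 0.000124 to 0.510 for Ctsa, 3.51e-05 to 0.2796 for Lamp2 and 0.0264 to 0.666 for Ctsz. Pump genes called numbered 3 with DESeq2, 3 with at least 50 counts, 1 to 4 with each library left out in turn (2 without control 2, 2 without control 5 and 3 without mimic 3) and 5 without control libraries 1 and 2. Members called numbered 7 to 13 with each library left out and 13 without both, and pathway genes called 43 in place of 24 without both. The difference of the pump median from that of hydrolases and membrane proteins was -0.098 to -0.050 with each library left out (-0.050 without control 1, -0.064 without control 2) and -0.040 without both.

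Signs turned only for genes near 0 that were not called in any alternative. With each library left out in turn, the log2 fold changes ran from -0.029 to 0.0065 for Atp6v0b, from -0.016 to 0.013 for Atp6v0c, from -0.033 to 0.018 for Atp6v1d, from -0.053 to 0.0072 for Atp6v1g2, from -0.0096 to 0.013 for Atp6ap1, from -0.032 to 0.050 for Neu1 and from -0.049 to 0.011 for Psap. Without control libraries 1 and 2 they were 0.026 for Atp6v0b, 0.027 for Atp6v1d, 0.039 for Atp6v1g2, -0.020 for Atp6ap1, 0.0055 for Ctsd, 0.067 for Neu1 and 0.028 for Psap. With at least 50 counts Atp6ap1 was at -5.1e-05. The cause was not tested.

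Replicate numbers did not pair the samples (correlations of deviations from -0.08 to 0.18). With the number as a replicate block 3659 genes were called in place of 4182, and the same 8 members, with 1 pump gene and a difference of medians of -0.08.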
